A study of Rattus norvegicus with 3 samples.

Results

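The genes described here encode the proteasome and the immunoproteasome. They are the genes whose symbol begins with Psma, Psmb, Psmc, Psmd or Psme, found by matching the RefSeq accession of each array probe to the rat annotation, and they number 43 of 13836 named genes on the design of the day 21 and uninjured arrays. Psmb8, Psmb9, Psmb10, Psme1 and Psme2 were set apart as the interferon-inducible set. The samples were whole common carotid arteries of male Wistar rats, taken 21 days after balloon injury, 7 days after balloon injury or without injury. Each group was represented by 1 one-colour array (3 arrays in all), so nothing could be tested, no p-value is given, and each value below sets 1 array against another. Further arrays of the study's separate experiments were not analysed here. The day 21 and uninjured arrays shared a design and a scan, whereas the day 7 array had its own design, scan and software version, so that in any comparison with it group and batch cannot be told apart. On the probes common to all 3 arrays 24 of the 43 genes were represented, among them 3 of the inducible set.

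The proteasome degrades proteins that carry ubiquitin chains. Its core particle is a barrel of outer alpha rings and inner beta rings, and the caps that sit on its ends either unfold ubiquitinated proteins with a ring of ATPases or, like the PA28 activator made by Psme1 and Psme2, open the barrel without ATP. Interferon gamma induces the catalytic subunits Psmb8, Psmb9 and Psmb10, which replace Psmb5, Psmb6 and Psmb7 in newly assembled barrels, and the resulting immunoproteasome cuts peptides that suit presentation on MHC class I molecules. Many leukocytes carry this form constitutively, and smooth muscle cells mostly carry the standard one.

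Signals are background-subtracted intensity units. The scaled level of a gene is its log2 signal minus the 75th percentile of log2 signal on that array, a log2 ratio is the difference of 2 scaled levels, and ± gives the SD of that ratio expected from replicate spots of 1 array, a technical spread. Different probes of 1 gene varied more, with a median SD of 0.40 for ratios of day 21 to uninjured over 2984 genes with several probes, dim probes included, and of 0.87 for ratios of day 7 to uninjured over 242 genes. A gene was called higher or lower at 2-fold, a log2 ratio of 1 either way, where it was well above background on both arrays. Of the probes, 66.6% at day 21, 76.2% at day 7 and 59.8% in the uninjured artery were well above background, and no spot was saturated. In the tissue check, all 5 measured smooth muscle markers were well above background on both arrays of the older design, where their summed scaled signal was 120 times the 75th percentile at day 21 and 605 times in the uninjured artery.

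Day 21 was set against the uninjured artery to describe the later stage after injury. Among the inducible catalytic subunits 2 of 3 passed 2-fold at day 21, and most other proteasome genes kept within 2-fold of the uninjured artery. Psmb8 and Psmb9 were at least 2-fold higher, Psma2 was at least 2-fold lower, and the remaining 39 of the 42 that stood well above background on each array were within 2-fold. Among all 9402 genes measured in this way 22.8% were at least 2-fold apart, 9.10% higher and 13.7% lower, with a median log2 ratio of -0.20. The alpha subunit gene Psma8, known for its role in the testis in mice, was not well above background on either array.

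Psmb8, whose product takes the place of Psmb5, had a signal of 417 at day 21, against 39.5 in the uninjured artery, or scaled levels of 1.63 and -0.32. Its log2 ratio of 1.95 ± 0.32 (3.87-fold) was above that of 96.3% of all genes, and it stayed at least 2-fold in all 8 alternative settings, between 1.53 and 2.43. Psmb9, which replaces Psmb6, had a signal of 2412 at day 21, against 437 in the uninjured artery, or scaled levels of 4.16 and 3.14. Its log2 ratio was 1.02 ± 0.16 (2.02-fold), just past the threshold, and it was 0.87 on the probes common to all 3 arrays and 0.96 in the authors' deposited table. Psmb10, which replaces Psmb7, had a signal of 3693 at day 21, against 734 in the uninjured artery, or scaled levels of 4.77 and 3.89. At 0.88 ± 0.15 (1.84-fold) it lay just inside 2-fold, and it passed 2-fold in 3 of 8 alternatives, reaching 1.52 with normexp background correction. All 3 inducible catalytic genes were thus higher on the day 21 array under every setting tried, with the calls of Psmb9 and Psmb10 near the threshold. Each was read on 1 probe, so averaging over probes and dropping the filter on dim probes left its ratio unchanged by construction.

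The 2 genes of the PA28 activator did not follow them. Psme1 had a signal of 2276 at day 21, against 745 in the uninjured artery, or scaled levels of 4.07 and 3.91, a log2 ratio of 0.16 ± 0.15. Psme2 had a signal of 928 at day 21, against 489 in the uninjured artery, or scaled levels of 2.78 and 3.30, a log2 ratio of -0.52 ± 0.23 that was 0.03 at its highest alternative. RefSeq names 3 pseudogenes after each of the pair, and how far their transcripts reached the probes was not tested. The median log2 ratio of the 5 inducible genes was 0.88, against -0.15 over the 37 other members. Set against the median of all genes, the inducible set lay 1.08 higher, a distance that ran from 1.01 to 1.20 over the alternatives, and the other members lay 0.04 higher, with a range from -0.09 to 0.41. On shared probes alone (1.14) and in the authors' deposited table (1.01) the inducible set held 3 genes, without Psme1 and Psme2. The other members then numbered 21 and 20.

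**Figure D1:**
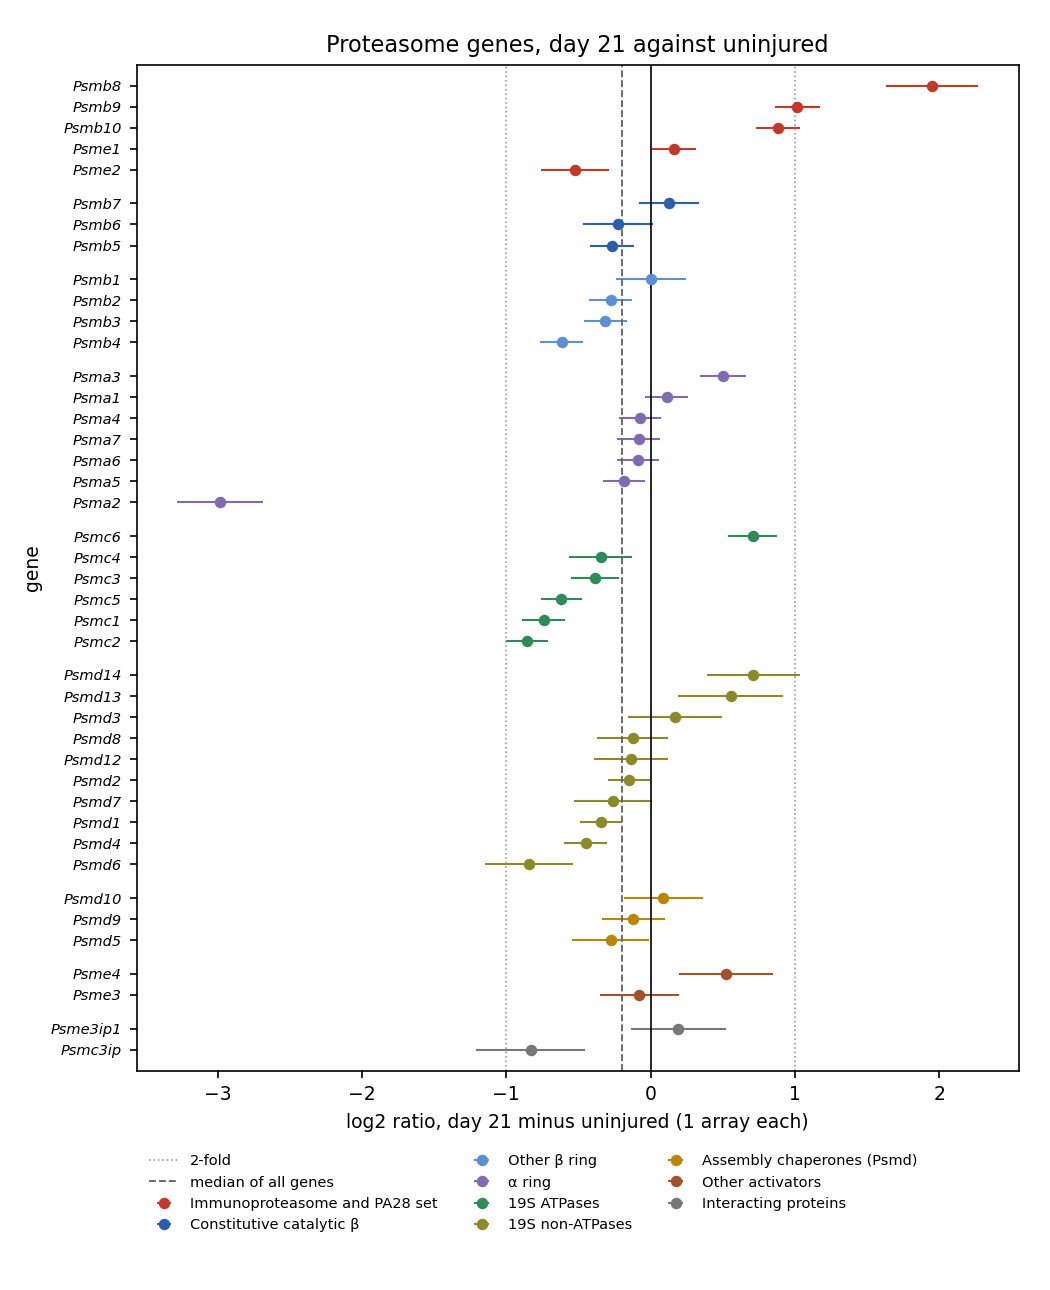
Log2 ratio of each proteasome gene, day 21 minus uninjured, grouped by role; the horizontal bars are the technical SD from replicate spots and each group is 1 array. Psmb8 (1.95) and Psmb9 (1.02) lie past the dotted line of 2-fold on the right and Psma2 (-2.98) on the left, and the dashed line marks the median of all genes (-0.20).

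Promoter sequences are shown for 4 genes of the set, 3 that hold a classical interferon element and 1, Psmb9, that does not. The interferon-stimulated response element was searched as GAAA, any 2 bases and GAAA again, on both strands, in windows of 250 bases before and 30 bases after each gene's start, taken from RefSeq on build GRCr8. It was present in 3.75% of 33469 promoters of that length, in 3 of the 5 inducible genes (Psmb8, Psmb10 and Psme2) and in 3 of 34 other members with an entry (Psma4, Psmb3 and Psmd7). The windows are chr20:4657002-4657281 for Psmb8 on the minus strand, chr20:4668750-4669029 for Psmb9 on the plus strand, chr19:50743263-50743542 for Psmb10 on the minus strand and chr15:33052722-33053001 for Psme2 on the minus strand, each printed in the direction of its gene with the element in capitals.
Psmb8: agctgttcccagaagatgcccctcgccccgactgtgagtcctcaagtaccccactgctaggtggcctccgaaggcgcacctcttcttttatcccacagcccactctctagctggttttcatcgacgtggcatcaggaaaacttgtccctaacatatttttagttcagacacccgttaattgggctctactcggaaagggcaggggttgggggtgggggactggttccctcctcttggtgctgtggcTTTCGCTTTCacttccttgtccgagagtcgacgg
Psmb10: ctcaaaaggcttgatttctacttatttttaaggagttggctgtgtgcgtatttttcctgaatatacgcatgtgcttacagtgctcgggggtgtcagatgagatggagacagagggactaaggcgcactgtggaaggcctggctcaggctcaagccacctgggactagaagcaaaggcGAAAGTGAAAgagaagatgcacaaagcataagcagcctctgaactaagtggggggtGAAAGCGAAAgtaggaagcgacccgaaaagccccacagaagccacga
Psme2: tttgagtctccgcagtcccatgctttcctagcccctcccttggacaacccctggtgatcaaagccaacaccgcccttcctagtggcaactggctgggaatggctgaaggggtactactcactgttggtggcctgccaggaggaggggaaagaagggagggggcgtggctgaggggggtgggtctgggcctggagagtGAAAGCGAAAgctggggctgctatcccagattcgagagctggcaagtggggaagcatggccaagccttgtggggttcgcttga
Psmb9: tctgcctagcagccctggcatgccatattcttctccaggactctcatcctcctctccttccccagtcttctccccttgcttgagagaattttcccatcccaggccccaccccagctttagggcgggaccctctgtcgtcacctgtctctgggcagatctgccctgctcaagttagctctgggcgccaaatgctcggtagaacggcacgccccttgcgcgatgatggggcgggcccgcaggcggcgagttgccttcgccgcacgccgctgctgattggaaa
In Psmb8 the element lies across the start, from base -4 to base 6 with the start as base 1, and reads on the opposite strand. Psmb10 holds it 2 times, 73 and 17 bases before the start. Psme2, the member of the set with the lowest day 21 ratio, holds it 53 bases before its start, and Psmb9 does not hold these letters in the window. A gamma-activated site, searched as TTCNNNGAA, occurred in 8.42% of all promoters and within the set in Psmb8 alone, 245 bases before its start. The antioxidant response element, searched as TGACNNNGC, occurred in 11.3% of all promoters, in none of the 5 inducible genes and in 8 of the 34 other members, among them Psmb5 (60 bases before the start) and Psmb6 (24 bases). No match of 1 motif overlapped a match of another. A match is a run of letters and was not tested as a site.

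The inducible genes differ in genomic place as well. On chromosome 20 Psmb8 and Psmb9 sit within the MHC, in the order RT1-DOb, Tap2, Psmb8, Tap1, Psmb9 and RT1-DMb, where Tap1 and Tap2 encode the peptide transporter that feeds class I molecules. Psme1 and Psme2 lie close together on chromosome 15 with Emc9 between them, and Psmb10 lies on chromosome 19 beside Lcat. In this chromosome 20 stretch the day 21 log2 ratios were 1.08 ± 0.29 for Tap2, 1.95 ± 0.32 for Psmb8, 0.19 ± 0.41 for Tap1 and 1.02 ± 0.16 for Psmb9.

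The constitutive catalytic subunits were within 2-fold of the uninjured artery at day 21. Psmb5, the chymotrypsin-like subunit, had a signal of 2664 at day 21, against 1175 in the uninjured artery, and a log2 ratio of -0.27 ± 0.15. Psmb6, the caspase-like subunit, had a signal of 877 at day 21, against 375 in the uninjured artery, and a log2 ratio of -0.22 ± 0.24. Psmb7, the trypsin-like subunit, had a signal of 1175 at day 21, against 394 in the uninjured artery, and a log2 ratio of 0.13 ± 0.21. Every one of these raw signals was higher on the day 21 array, as was the 75th percentile over all probes, which was 135 on the day 21 array and 49.6 on the uninjured array, and the scaling removes this.

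Differences between an inducible subunit and the one it replaces do not depend on how the arrays are scaled by a constant. The log2 ratio of Psmb8 exceeded that of Psmb5 by 2.22 ± 0.35 at day 21, a 4.65-fold change in their relation, although normexp background correction gave 1.15. That of Psmb9 exceeded that of Psmb6 by 1.24 ± 0.29, between 0.95 and 1.32 over the alternatives. That of Psmb10 exceeded that of Psmb7 by 0.76 ± 0.26, and by 1.35 with normexp. Of the 8 alternatives 5 left these differences unchanged. For keeping flagged spots this was an outcome of the data, and for the rest of the 5 it holds by construction. In the 3 that moved them, quantile normalization, normexp and the authors' deposited table, the differences of the 3 pairs stayed above 0.

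Outside the inducible set the alpha ring, which forms the gate of the barrel, had a median log2 ratio of -0.08 over 7 genes at day 21, above the median of all genes. Psma2 stood apart from the ring. It had a signal of 75.6 at day 21, against 219 in the uninjured artery, or scaled levels of -0.84 and 2.15. It was the 1 member of the 42 with a lower raw signal at day 21 than in the uninjured artery, and its log2 ratio of -2.98 ± 0.30 (7.92-fold lower) was undercut by 0.383% of all genes. It was read on 1 probe, RefSeq names 2 pseudogenes after it, and the alternatives ranged from -3.25 to -1.92, the last with normexp. The other 6 measured alpha ring genes, Psma1, Psma3, Psma4, Psma5, Psma6 and Psma7, lay between -0.18 and 0.50, with Psma3 highest at 0.50 ± 0.16.

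The noncatalytic beta subunits Psmb1, Psmb2, Psmb3 and Psmb4 had a median of -0.30 at day 21 and lay between -0.62 ± 0.15 (Psmb4) and 0.01 ± 0.24 (Psmb1). The 6 ATPases of the regulatory cap, which unfold substrates and thread them into the barrel, had a median of -0.50, and 5 of them were below the median of all genes. Psmc2 was at -0.86 ± 0.15, Psmc1 at -0.74 ± 0.15, Psmc5 at -0.62 ± 0.14, Psmc3 at -0.38 ± 0.17 and Psmc4 at -0.35 ± 0.22, while Psmc6 was at 0.71 ± 0.17. None of the 6 passed 2-fold, although Psmc6 did so in 2 of 6 alternatives. A second Psmc6 probe gave 0.21.

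The non-ATPase subunits of the cap had a median of -0.14 over 10 genes at day 21, and none of the 10 passed 2-fold. Psmd14, the deubiquitinase that removes ubiquitin chains from bound substrates, was highest at 0.71 ± 0.32, with a signal of 417 at day 21, against 93.04 in the uninjured artery. Psmd13 of the lid followed at 0.56 ± 0.36, and the lid subunit gene Psmd6 was lowest at -0.85 ± 0.30. The ubiquitin receptor gene Psmd4 was at -0.45 ± 0.15, and Psmd1, Psmd2, Psmd3, Psmd7, Psmd8 and Psmd12 lay between -0.34 and 0.17. The assembly chaperones Psmd5, Psmd9 and Psmd10, which help build the ATPase ring and are absent from the finished particle, lay between -0.28 and 0.09. Of the other activators, Psme3, the nuclear relative of PA28, was at -0.08 ± 0.27, and Psme4, which encodes the nuclear activator PA200, was at 0.52 ± 0.33. Psmc3ip and Psme3ip1 share the prefix but encode proteins that bind proteasome components and are no subunits. They were at -0.83 ± 0.38 and 0.19 ± 0.33.

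Of the 37 members outside the inducible set, 36 were within 2-fold at day 21, 97.3% against 77.2% of all genes, and the interquartile range of their ratios was 0.44, against 0.97 over all genes. These genes were also brighter than most, with a median signal of 1175 at day 21 and 426 in the uninjured artery, against 181 and 60.5 over all genes, and the part of this in the narrower range was not tested. The direction of this group depended on scaling: its median was -0.15, and 0.33 with median scaling and 0.34 with normexp, settings in which the median of all genes moved by 0.48 and 0.12. With median scaling 1641 genes were at least 2-fold higher and 489 lower, and with quantile normalization 982 and 787, against 856 and 1291 as reported. Among the 7 members with several probes, 5 had probes of opposite sign (Psma6, Psmc4, Psmd1, Psmd2 and Psmd7), the widest being Psmd7 with ratios from -0.62 to 1.001.

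Genes of class I antigen presentation, listed with earlier results of these arrays known, are given beside the inducible set. The 16 of 21 listed genes with a probe all passed the background filter, and at 2-fold 8 of them were higher, 1 was lower and 7 were within 2-fold, where 9.10% of all genes were higher. The ratio was above 0 in 14 of the 16, with a median of 1.03, against -0.20 over all genes. The class I heavy chain genes RT1-A2 (2.72 ± 0.15), RT1-CE1 (2.42 ± 0.15), RT1-N3 (2.28 ± 0.32) and RT1-CE5 (2.12 ± 0.30) were highest. These are closely related genes, and cross-hybridisation among them was not tested. Tapbp, which encodes the tapasin that loads peptides, was at 1.35 ± 0.32, B2m, the light chain, at 0.49 ± 0.14, and the tapasin relative Tapbpl at -1.23 ± 0.29. Second probes gave 0.73 for RT1-CE5 and 3.71 for RT1-A2, and the 4 probes of B2m ran from -0.17 to 0.62.

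**Figure D2:**
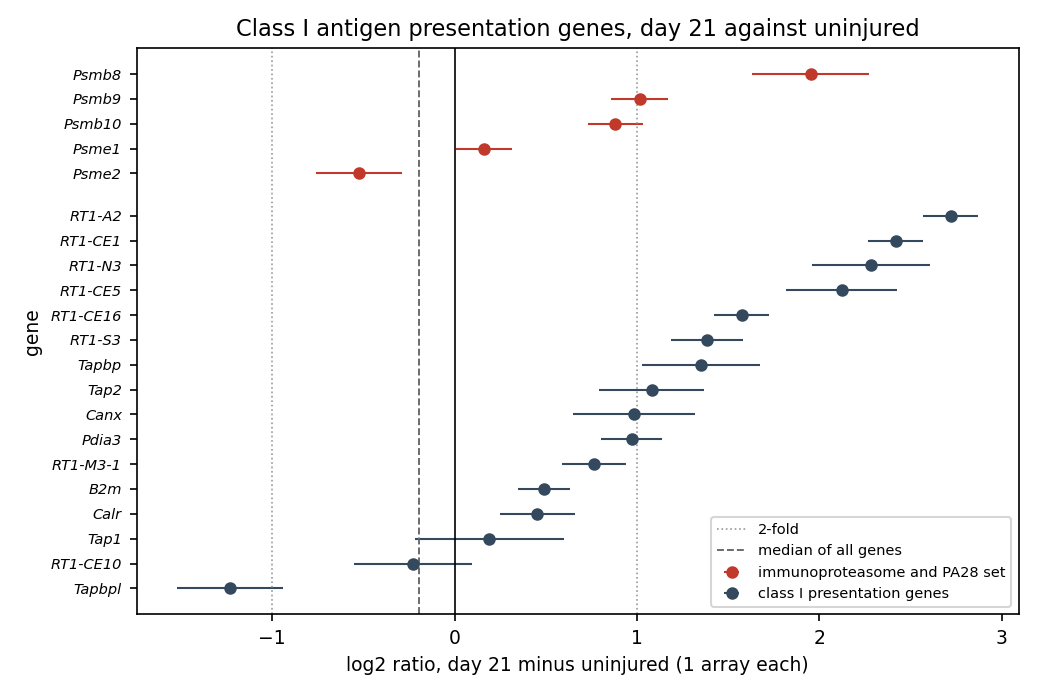
Log2 ratio, day 21 minus uninjured, of the inducible proteasome set (upper points) and of the genes of class I antigen presentation (lower points), with technical SD as bars and 1 array per group. The inducible set runs from -0.52 (Psme2) to 1.95 (Psmb8), and 8 of the 16 presentation genes lie to the right of 2-fold.

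Genes of interferon signalling and response were divided at day 21. At 2-fold 4 genes were higher and 4 lower, of 16 well above background on both arrays, and the median was -0.23. The receptor genes Ifngr1 (2.41 ± 0.32) and Ifngr2 (1.40 ± 0.17), the kinase gene Jak2 (1.40 ± 0.11) and the response gene Ifit2 (1.07 ± 0.40) were higher. A second Ifit2 probe gave -0.026. The response genes Isg15 (-2.27 ± 0.28), Oas1a (-1.75 ± 0.26) and Mx1 (-1.10 ± 0.31) and the regulator gene Irf7 (-1.16 ± 0.27) were lower. Mx1 was dim, and before scaling its signal was higher at day 21 (15.7, against 12.3 in the uninjured artery). Irf1, a transcription factor that acts on response elements, did not stand well above background without injury, so that it was at least 3.13-fold higher. Ifng itself was not well above background on either array.

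Other genes of ubiquitin-dependent degradation, also listed with earlier results known, lay near the median of all genes at day 21. The 16 assembly and regulator genes well above background on both arrays had a median of -0.19, with Pomp, the maturation protein of the barrel, at -0.53 ± 0.15. Of 16 ubiquitin and conjugation genes, Ube2d1, a conjugating enzyme, was 2-fold higher (1.56 ± 0.32), none was lower and the median was -0.20. Both medians were close to that of all genes (-0.20).

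Markers of other cell types moved at the same time. All 8 macrophage markers were higher at day 21, 6 of them with a median log2 ratio of 4.18 and 2 (Fcgr3a and Itgam) as bounds, and their summed scaled signal was 808 times the 75th percentile at day 21, against 33.9 times in the uninjured artery. The summed scaled signal of 9 T and NK cell markers was 13.7 at day 21, against 3.82 in the uninjured artery, and 5 of them were well above background on both arrays with a median of 0.77. These ran from Cd3e at -0.49 ± 0.31 and Nkg7 at 0.25 ± 0.31 to Cd8b at 3.28 ± 0.33, while Cd2 and Cd4 were not well above background on either array. The summed scaled signal of 5 endothelial markers was 13.5 at day 21, against 2.81 in the uninjured artery, with Emcn at 3.37 ± 0.33, Kdr at 2.46 ± 0.26 and Cdh5 at -0.21 ± 0.32. The 5 smooth muscle markers were all lower, with a median of -2.69. That median is the value of Myh11, of which a second probe gave -0.51. No marker was listed at 0 on these arrays. The part of these shifts in the ratios of the proteasome genes was not tested, and in whole arteries fewer cells of a type and less RNA per cell cannot be told apart.

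Day 7 was set against the uninjured artery to describe the earlier stage, on the 24 genes with probes common to all 3 arrays and scaled on these. Psmb9 was higher at day 7, Psmb8 was near the uninjured artery and Psmb10 was below it, so the inducible catalytic genes did not move together on this array. At 2-fold, Psmb9 and Psme3ip1 were higher and Psma2, Psmc5, Psmc3ip and Psmd5 lower, 6 of 24. Of all 5218 genes well above background on both arrays 32.4% passed 2-fold, 16.2% higher (843 genes) and 16.3% lower (849 genes), with a median of -0.01. This balance depended on scaling, with 507 genes higher and 1420 lower under median scaling and 179 and 3094 with own-design scaling, in which the percentile came from every probe an array holds. The day 7 and day 21 ratios share the 1 uninjured array.

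Psmb8 had scaled levels of -1.68 in the uninjured artery, -1.31 at day 7 and 0.12 at day 21 on these probes, from signals of 39.5, 92.7 and 417. Psmb9 had scaled levels of 1.78 in the uninjured artery, 2.82 at day 7 and 2.65 at day 21, from signals of 437, 1626 and 2412. Psmb10 had scaled levels of 2.53 in the uninjured artery, 1.73 at day 7 and 3.27 at day 21, from signals of 734, 762 and 3693. On this scale Psmb8 was highest on the day 21 array and Psmb10 lowest on the day 7 array, and the order of the injured arrays for Psmb9 depended on the scaling. The day 7 ratios to the uninjured artery were 0.37 ± 0.28 for Psmb8, 1.04 ± 0.15 for Psmb9 and -0.81 ± 0.13 for Psmb10. With own-design scaling, a setting that moved the median of all genes by -1.22, these ratios were -0.85, -0.18 and -2.03.

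The catalytic genes were also set against their constitutive counterparts at day 7, where again only 3 of the 8 alternatives moved a difference. The ratio of Psmb9 exceeded that of Psmb6 by 1.34 ± 0.20 at day 7, between 1.18 and 1.43 over these 3, and that of Psmb10 was below that of Psmb7 by a difference of -0.91 ± 0.19, between -1.23 and -0.79. For Psmb8 and Psmb5 the difference was 0.24 ± 0.32, within the technical SD, and its sign was negative in all 3, the lowest being -0.37 in the authors' deposited table. The constitutive genes themselves were at 0.13 ± 0.14 (Psmb5), -0.30 ± 0.14 (Psmb6) and 0.11 ± 0.14 (Psmb7) at day 7.

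**Figure D3:**
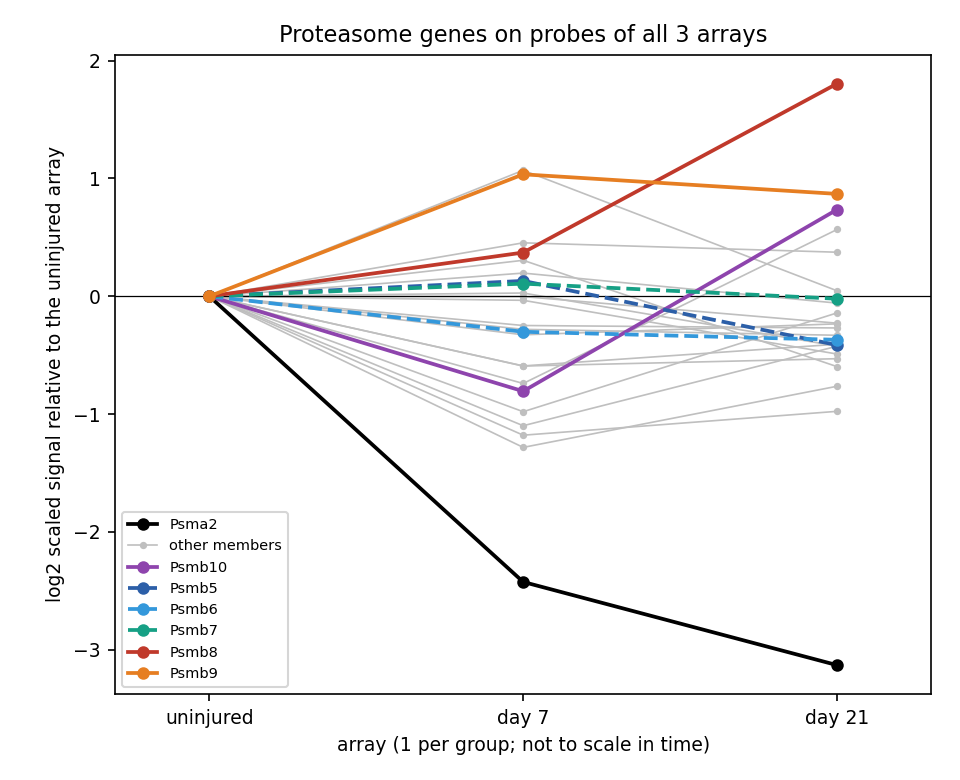
Scaled log2 level of 24 proteasome genes relative to the uninjured array, on the uninjured, day 7 and day 21 arrays (1 each), for probes common to all 3; the inducible catalytic genes are solid, their constitutive counterparts dashed and the remaining genes grey. Psmb8 is highest on the day 21 array, Psmb10 is below 0 at day 7 and above it at day 21, and Psma2 is lowest on both injured arrays.

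Among the other members the lowest at day 7 was again Psma2, with signals of 74.1 at day 7 and 219 in the uninjured artery and a log2 ratio of -2.43 ± 0.29. It was at least 2-fold lower in all 8 alternatives, from -3.64 to -1.81. Averaging over probes and dropping the filter could not move this ratio, which was read on 1 probe. Psmc5, an ATPase of the cap, was at -1.28 ± 0.14, the chaperone gene Psmd5 at -1.10 ± 0.14 and Psmc3ip, which takes part in meiotic recombination, at -1.18 ± 0.37. Psme3ip1, whose product binds the nuclear activator Psme3, was highest at 1.07 ± 0.24, but was at -0.15 with own-design scaling. Psme4 followed at 0.45 ± 0.24 and Psmd4 at 0.31 ± 0.14. The noncatalytic beta gene Psmb1 was at -0.98 ± 0.13, the deubiquitinase gene Psmd14 at -0.74 ± 0.27, the ATPase gene Psmc3 at -0.59 ± 0.14 and the lid gene Psmd7 at -0.59 ± 0.13. Psma5, Psma6, Psma7, Psmb2, Psmd1, Psmd8 and Psmd10 lay between -0.33 and 0.20. The median was 0.37 over the 3 inducible genes and -0.28 over the 21 others. With own-design scaling these were -0.85 and -1.5005, with 19 of 24 members called lower. In that setting 3094 of all 5218 genes were lower, with a median of -1.23. The inducible median lay 0.65 above that of the others, a distance that scaling by a constant cannot move. It was 0.21 with quantile normalization, 0.21 with normexp and -0.025 in the authors' deposited table.

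At day 7 the class I presentation list had 8 genes well above background on both arrays, 2 of them at least 2-fold higher (RT1-A2 at 2.54 ± 0.26 and RT1-S3 at 1.496 ± 0.18), none lower and a median of 0.75. Of 9 interferon genes 2 were higher, Ifngr2 (2.18 ± 0.17) and the guanylate-binding protein gene Gbp2 (1.92 ± 0.15). Another 3 were lower, among them Isg15 (-2.66 ± 0.18) and Irf7 (-1.73 ± 0.17). The ratio was below 0 in 6 of the 9, with a median of -0.81. Of all genes 16.2% were higher and 16.3% lower in this comparison. Of 8 assembly and regulator genes 2 were higher and 1 lower, with a median of -0.034. Adrm1, a ubiquitin receptor of the cap, was at 2.13 ± 0.32 and Ubqln1 at -1.14 ± 0.13. Adrm1 was read on 1 probe and was dim in the uninjured artery, with a signal of 9.75, against 77.5 at day 7. The summed scaled signal of 6 macrophage markers was 99.9 at day 7, against 6.52 in the uninjured artery, and that of 6 T and NK cell markers was 1.37 at day 7, against 1.22 in the uninjured artery. That of 3 endothelial markers was 2.73 at day 7, against 0.839 in the uninjured artery, with Emcn at 2.59 ± 0.26 and Kdr at 1.53 ± 0.22. The 3 smooth muscle markers (Cnn1, Des and Tagln) were all at least 2-fold lower, with a median of -2.20 and a summed scaled signal of 36.9 at day 7, against 172 in the uninjured artery. Their part in the ratios was not tested.

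Day 21 was also set against day 7, to describe the time course within the injured artery. This uses the same day 21 and day 7 arrays as the comparisons above and adds no independent data. Psmb10 (1.54 ± 0.16) and Psmb8 (1.43 ± 0.30) were at least 2-fold higher at day 21 than at day 7, as was Psmd14 (1.31 ± 0.29), and Psme3ip1 was lower (-1.02 ± 0.26). These are 4 of 24 members, where 30.7% of all 5603 genes passed 2-fold, 10.7% higher (602 genes) and 19.9% lower (1117 genes), with a median of -0.19. Median scaling gave 1209 higher and 627 lower, quantile normalization 943 and 655, and own-design scaling 3232 and 161. Psmb9 was at -0.17 ± 0.16, but it was positive in 3 of 8 alternatives, at 0.30 with median scaling, 0.48 in the authors' deposited table and 1.20 with own-design scaling. Psmb10, Psmb8 and Psmd14 passed 2-fold in all 8 alternatives, whereas Psme3ip1 did so in 4 and was at 0.35 with own-design scaling. All 24 members were read on 1 probe here, so averaging over probes and dropping the filter left their ratios unchanged by construction.

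The relation of Psmb10 to Psmb7 shifted by 1.67 ± 0.26 between day 7 and day 21, between 1.55 and 2.58 over the alternatives, and that of Psmb8 to Psmb5 by 1.98 ± 0.34, between 1.25 and 2.47. That of Psmb9 to Psmb6 was -0.10 ± 0.29. Of the remaining members Psmb1 was highest at 0.84 ± 0.24 and Psmd5 followed at 0.67 ± 0.26, while Psmd4 was at -0.90 ± 0.17, Psma2 at -0.71 ± 0.35 and Psmb5 at -0.54 ± 0.16. Psma5, Psma6, Psma7, Psmb2, Psmb6, Psmb7, Psmc3, Psmc3ip, Psmc5, Psmd1, Psmd7, Psmd8, Psmd10 and Psme4 lay between -0.46 and 0.52. The median was 1.43 over the 3 inducible genes and -0.07 over the 21 others. In the same comparison the summed scaled signal of 6 macrophage markers was 187 at day 21, against 99.9 at day 7. That of 6 T and NK cell markers was 2.82 at day 21, against 1.37 at day 7. Of 11 interferon genes 2 were at least 2-fold higher, among them Ifit2 (1.08 ± 0.54). Gbp2 (-1.73 ± 0.21) was the 1 lower, and the median was 0.0023. Of 8 class I presentation genes 2 were higher and none lower, with a median of 0.52. Adrm1 was at -2.96 ± 0.31, from a dim signal of 16.6 at day 21, against 77.5 at day 7. For all genes these shares were 10.7% higher and 19.9% lower.

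**Figure D4:**
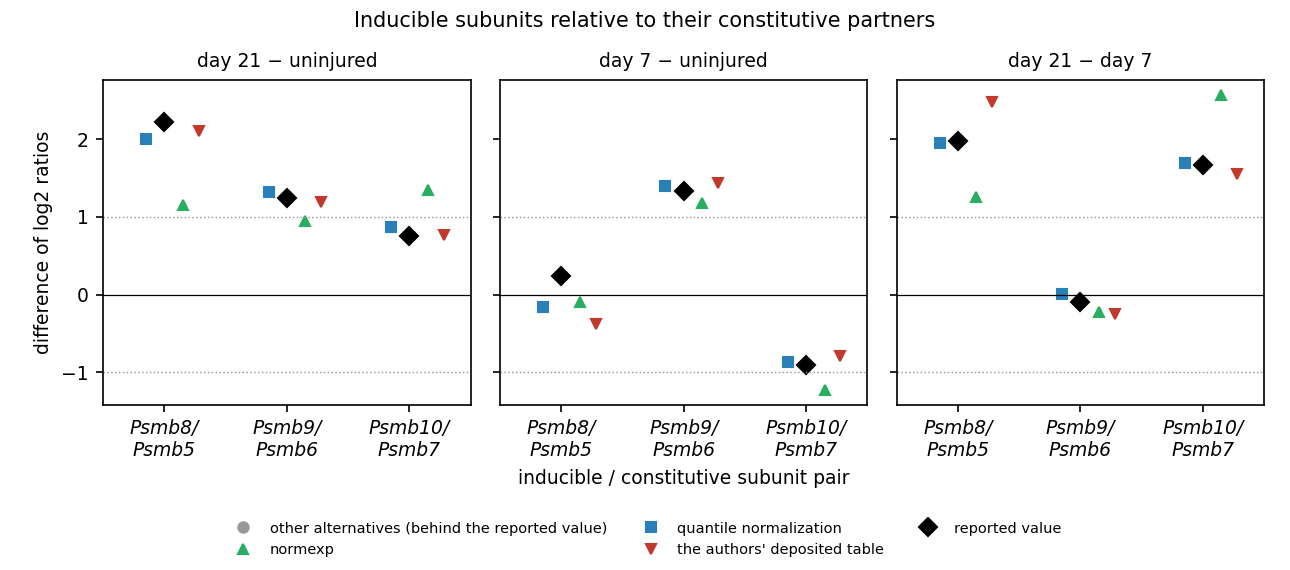
Log2 ratio of each inducible catalytic subunit minus that of the constitutive subunit it replaces, in the 3 comparisons of single arrays; diamonds are the reported values, other symbols the alternative settings, and dotted lines mark 2-fold. Psmb8 against Psmb5 is at 2.22 for day 21 and 0.24 for day 7 over uninjured, Psmb9 against Psmb6 at 1.24 and 1.34, and Psmb10 against Psmb7 lies below 0 at day 7 (-0.91).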

How the data were processed

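Cy3-labelled total RNA of each artery was hybridised to an Agilent rat array of 1 colour, per the labels. Per the file headers, Feature Extraction 10.7.3.1 (day 21 and uninjured) or 11.0.1.1 (day 7) made the spot intensity values and subtracted background within each array. The submitters' processing notes name 10.7.3.1. The authors' deposited table gives log2 values in 9260 rows, and its column medians were 7.64 (day 21), 7.62 (day 7) and 7.64 (uninjured). It carries a normalization not given in the sources used here. It runs in the direction of the scanner signals, and the centring of its columns stays unknown.

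Control spots and outlier-flagged spots were dropped, replicate spots of a probe were averaged as log2 values, and the 75th percentile of each array was subtracted. The day 21 and uninjured arrays were compared over the 40989 unflagged probes of their shared design. Comparisons with day 7 used the 10583 unflagged probes on all 3 arrays, scaled on these. Names came from RefSeq accessions without version in the GRCr8 annotation (17506 probes, 42.7%, on the day 21 array), used for names, promoters and gene order, since the array designs are on rn4. A gene was read at its brightest probe. Where 1 array was not well above background, the ratio is a bound. The technical SD comes from probes with at least 3 spots, interpolated over signal. Of 48 protein-coding RefSeq symbols with these prefixes, 5 had no matched probe (Psmb11, Psmb3l1, Psmb3l2, Psmb6l1 and Psmd11).

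Named were the inducible set, its constitutive counterparts, every member past 2-fold in any comparison and the 3 highest and lowest others. Values of some genes in the interferon and assembly lists are not reported here. The members and lists were chosen with earlier results of these data known. The alternatives were median scaling, quantile normalization, normexp (limma 3.58.1, offset 50), own-design scaling, the mean over probes, flagged spots kept, no filter on dim probes, shared probes alone, the authors' deposited table and a 1.5-fold threshold. The plan named the mean signal for normexp; the scanner columns used here held the median signal, which replaced it. The differences between catalytic counterparts and the setting without Psma2 were added after seeing the data. The code was tested on simulated data. Python 3.11.15 and R 4.3.3 were used.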

Additional observations from a re-analysis of the deposited data

Results flagged for a closer look

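In 3 of the 24 genes on common probes the ratios to the uninjured artery went opposite ways at the 2 times, by more than 2 technical SDs each. Psmb10 was at 0.88 at day 21 and -0.81 at day 7, Psmd14 at 0.71 and -0.74, and Psmd4 at -0.45 and 0.31. The directions of Psmd4 did not hold under every scaling: its sign turned in 2 of 8 alternatives at each time, reaching 0.18 with normexp at day 21 and -0.91 with own-design scaling at day 7. Psmb10 and Psmd14 kept their signs in all 8 alternatives at each time, although averaging over probes and dropping the filter could not move genes read on 1 probe. The difference between the times was not tested. Both ratios of each gene share the 1 uninjured array, and the day 21 ratios were scaled on all probes of the older design, the day 7 ratios on the common probes. A further 3 genes had opposite signs by less than that.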

How the results depend on the processing

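No paired analysis was possible because each group held 1 array. Of 681 member values recomputed under the alternatives, 394 moved by less than the technical SD, 284 moved by more and 3 changed sign past the threshold: with own-design scaling (each array on all its probes) Psmb9 at day 7 against uninjured was at -0.18 and Psme3ip1 at -0.15, and Psme3ip1 at day 21 against day 7 was at 0.35. The 394 include values that could not move: for members read on 1 probe and past the filter, averaging over probes and dropping the filter change nothing. Keeping flagged spots moved the median of all genes by 0.00022 for day 21 against uninjured. It moved that median by -0.0047 for day 7 against uninjured and by -0.0010 for day 21 against day 7. In the counts that follow, those over all genes and over members give the higher genes first. The reported counts were over 9402 genes (day 21 against uninjured), 5218 (day 7 against uninjured) and 5603 (day 21 against day 7). Lifting the filter, shared probes alone and the authors' deposited table changed these totals, which are then given, so their counts cannot be compared directly with those reported.

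For day 21 against uninjured, median scaling gave medians of 1.36 (inducible) and 0.33 (other members), 1641 and 489 genes, and 6 members higher. Quantile normalization gave 787 genes lower. Normexp gave medians of 1.09 and 0.34, 265 genes lower, 4 members higher, 1.15 for Psmb8 minus Psmb5 and 1.35 for Psmb10 minus Psmb7. Without the filter 1347 and 3168 of 13833 genes and 2 lower members were counted. On shared probes alone the other members had a median of -0.37, with 494 of 5469 genes and 1 member higher. The authors' deposited table gave 523 and 390 of 4162 genes and 1 and 2 members. At 1.5-fold there were 1491 and 2765 genes and 5 and 7 members. Without Psma2 there were 0 lower members.

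For day 7 against uninjured, median scaling gave medians of -0.0069 and -0.66, 507 and 1420 genes, and 0 and 7 members. Own-design scaling gave -0.85 and -1.5005, 179 and 3094 genes, and 0 and 19 members. Quantile normalization gave 0.17 and -0.032, with Psmb8 minus Psmb5 at -0.16. Normexp gave an inducible median of 0.059, 337 and 509 genes, 1 and 2 members, -0.10 for Psmb8 minus Psmb5 and -1.23 for Psmb10 minus Psmb7. Without the filter there were 1830 and 1539 of 7796 genes. The authors' deposited table gave -0.55 and -0.53, 414 and 1654 of 4094 genes, 0 and 8 members, and -0.37 for Psmb8 minus Psmb5. At 1.5-fold there were 1466 and 1487 genes and 9 lower members.

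For day 21 against day 7, median scaling gave 1.90 and 0.40, 1209 and 627 genes, and 5 and 0 members. Own-design scaling gave 2.80 and 1.30, 3232 and 161 genes, and 18 and 0 members. Quantile normalization gave 943 and 655 genes. Normexp gave an inducible median of 1.05, 0 lower members, 1.25 for Psmb8 minus Psmb5 and 2.58 for Psmb10 minus Psmb7. Without the filter there were 999 and 2085 of 7788 genes. The authors' deposited table gave 2.20 and 0.51, 1659 and 262 of 4188 genes, 7 and 0 members, and 2.47 for Psmb8 minus Psmb5. At 1.5-fold there were 1144 and 1883 genes and 5 and 3 members. The causes were not tested. Scaling by a constant moves every gene alike. Psma8 was below the background limit on both arrays of its design and has no ratio.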

Other observations

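Psme1 and Psme2 had no probe in common between the designs, so their day 7 levels were not compared with the other arrays. The day 7 array held 19 members on probes of its own alone, all 19 of them well above background. The authors' deposited table places such probes beside probes of the other arrays: for Psmd6 it gives 12.1 at day 7 and 5.96 in the uninjured artery, a log2 difference of 6.19, and for Psmc6 4.92 at day 7 and 9.90 in the uninjured artery, a difference of -4.99. In the authors' deposited table Psme1 was at 1.76 and Psme2 at 1.93 for day 7 minus uninjured. These values set different probes against each other, and they are given without a direction for the genes.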
